A study of Homo sapiens with 18 samples.

Results

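Genes encoding amino acid transporters, or the heavy chain that some of them need, were followed through senescence and through inhibition of protein N-myristoylation: SLC7A11, SLC7A5, SLC3A2, SLC7A1, SLC1A4, SLC1A5, SLC38A1, SLC38A2, SLC6A9 and SLC43A1. These 10 were taken by symbol from the 28266 gene rows of the count table, and all 10 passed the filter on low counts that left 14341 genes to test. They were chosen with earlier results of these data known, so their counts beside the shares of all genes are a description only. IMR90 ER:RAS cells derive from an established human lung fibroblast line, described in the labels as wild type, to which a retrovirus added a fusion of the oestrogen receptor and oncogenic RAS. Every group carried this fusion, including the controls. Cells received 4-hydroxytamoxifen (4OHT, 100 nM), which activates the fusion and drives the cells into senescence, or DMSO, and grew for 7 days. They then received the N-myristoyltransferase inhibitors (NMTi) IMP1088 at 300 nM or DDD86481 at 1.5 µM, or DMSO, for 3 days until day 10. This made 6 groups of 3 bulk poly(A) RNA libraries: control cells (DMSO first) with DMSO, IMP1088 or DDD86481, and senescent cells (4OHT first) with the same additions. The labels do not say whether replicates came from separate cultures, and the study describes its replicates of this treatment as independent experiments.

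Amino acids cross the plasma membrane on carriers of several families. SLC3A2 (4F2hc, CD98) is a heavy chain that carries light chains such as SLC7A5 and SLC7A11 to the cell surface, where SLC7A5 (LAT1) exchanges large neutral amino acids such as leucine, and SLC7A11 (xCT) takes up cystine in exchange for glutamate. SLC7A1 (CAT1) carries arginine and lysine, SLC1A4 (ASCT1) and SLC1A5 (ASCT2) exchange small neutral amino acids and glutamine, SLC38A1 (SNAT1) and SLC38A2 (SNAT2) bring in glutamine and alanine with sodium, SLC6A9 (GLYT1) takes up glycine, and SLC43A1 (LAT3) carries branched-chain amino acids without a heavy chain. On GRCh38.p14 the light chain genes span chr4:138164097-138242349 (SLC7A11), chr16:87830023-87869507 (SLC7A5) and, for the related SLC7A1, chr13:29509414-29595688, and the heavy chain gene spans chr11:62856109-62888860. SLC1A4 lies at chr2:64988479-65023865, SLC1A5 at chr19:46774883-46788594, SLC6A9 at chr1:43996483-44031462 and SLC43A1 at chr11:57484534-57515702. SLC38A1 (chr12:46183063-46269043) and SLC38A2 (chr12:46358188-46372773) lie near each other on chromosome 12. Several of these genes are known targets of ATF4, a transcription factor of the amino acid and integrated stress responses, and SLC7A11 is also a known target of NRF2, encoded by NFE2L2.

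Upstream sequence was available for 9 of the 10 genes in the RefSeq promoter table on GRCh38.p14, and SLC7A11 had no entry. The 250 bases before each start were searched on both strands for TGATGNAA, the letters of composite sites of ATF4 and C/EBP factors, for TGACNNNGC, those of antioxidant response elements bound by NRF2, and for CACGTG, an E-box bound by MYC and MAX. TGATGNAA was found before 0 of the 9 genes, before 3.19% of the 27305 promoters in the table and before 1.49% of the 11104 promoters that matched a tested gene. TGACNNNGC was found before 2 of 9, 11% of all promoters and 12.2% of those of tested genes, and CACGTG before 2 of 9, 6.49% and 8.63%. The 4 windows with a match are printed 5′ to 3′ on the strand of the gene, with the match in capitals, because the upstream sequences of these genes are the ones that held any of the 3 motifs. The match starts 37 bases before the listed start of SLC3A2, 85 before that of SLC7A1, 130 before that of SLC7A5 and 112 before that of SLC43A1. The listed start of SLC3A2 lies inside the span of the gene.
SLC3A2 (chr11:62881449-62881698, plus strand): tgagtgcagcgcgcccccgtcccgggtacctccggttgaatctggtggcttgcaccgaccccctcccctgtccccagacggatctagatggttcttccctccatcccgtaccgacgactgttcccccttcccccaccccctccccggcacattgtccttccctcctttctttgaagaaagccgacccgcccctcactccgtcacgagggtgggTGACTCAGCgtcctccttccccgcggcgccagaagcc
SLC7A1 (chr13:29595689-29595938, minus strand): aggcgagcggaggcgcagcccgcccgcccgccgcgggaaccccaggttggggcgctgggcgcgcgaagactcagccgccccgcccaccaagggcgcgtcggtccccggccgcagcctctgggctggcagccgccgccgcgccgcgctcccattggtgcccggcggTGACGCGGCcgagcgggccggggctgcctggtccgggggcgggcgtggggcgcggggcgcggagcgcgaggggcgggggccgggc
SLC7A5 (chr16:87869508-87869757, minus strand): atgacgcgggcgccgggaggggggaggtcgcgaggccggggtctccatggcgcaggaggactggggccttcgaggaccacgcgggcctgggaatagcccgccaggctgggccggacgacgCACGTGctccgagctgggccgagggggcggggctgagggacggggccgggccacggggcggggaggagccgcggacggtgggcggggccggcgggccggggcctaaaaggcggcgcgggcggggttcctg
SLC43A1 (chr11:57515703-57515952, minus strand): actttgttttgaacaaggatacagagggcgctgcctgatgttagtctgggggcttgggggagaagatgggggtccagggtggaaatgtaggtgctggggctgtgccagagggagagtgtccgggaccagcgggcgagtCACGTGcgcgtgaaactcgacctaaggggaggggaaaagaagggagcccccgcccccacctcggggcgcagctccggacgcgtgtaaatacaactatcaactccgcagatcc
A match in these windows describes letters only, and binding was not measured.

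Libraries held between 16143716 and 23189950 counts. Levels are given as counts relative to the library total (CPM) after scaling by the trimmed mean of M values (TMM), as mean ± SD of 3 libraries, and single values follow the order of the replicates. Summed fibroblast markers ran from 11400 to 36200 CPM, against 43.6 to 150 for epithelial, 1.17 to 10.7 for endothelial and 15.2 to 165 for leukocyte markers. Of the leukocyte markers CD3E was at 0 in every library, and CD68 went from 17.5 CPM in control DMSO to 132 CPM in senescent DMSO. Between the same groups the endothelial markers PECAM1 and CDH5 went from 0.21 to 2.77 CPM and from 0.0134 to 1.77 CPM. The fibroblast markers DCN and LUM went from 3040 to 7.73 CPM and from 314 to 8.39 CPM, while COL1A1 stood at 7600 and 3210 CPM. THY1 went from 660 to 414 CPM, whereas VIM, unlike the rest of the fibroblast list, rose from 5040 to 11700 CPM. The part of these marker shifts in the transporter changes with senescence was not tested. Senescent DMSO differed from control DMSO in the arrest gene CDKN2B (3.10 ± 0.12 on the log2 scale) and the proliferation gene MKI67 (21.6 CPM on average in control DMSO and 0.161 CPM in senescent DMSO, near the floor of 3 counts). With IMP1088 and DDD86481, MKI67 averaged 3.63 and 3.94 CPM in control cells. In senescent cells CDKN2B averaged 106 and 109 CPM, against 226 CPM with DMSO. There COL1A1 fell from 3210 to 831 and 1130 CPM, while COL1A2 rose from 708 to 1380 and 1690 CPM. The part of these shifts in the transporter changes with the inhibitors was not tested. Replicate 3 of control DMSO stood farthest from its group over all genes, with a root mean square deviation of 0.318 on the log2 scale, and was the lowest of its group for 8 of the 10 transporters but for 42.3% of all genes. Replicate 1 of control DDD86481 was the highest of its group for 10 of 10 transporters and 38.4% of all genes, and replicate 2 the lowest for 9 of 10 and 40.2%. Calls that changed without these libraries are given with and without them. Per kilobase of the canonical transcript, SLC38A2 had the highest level of the 10 in control DMSO (178 ± 11.1 CPM per kb), ahead of SLC1A5 (72.2 ± 7.84) and SLC3A2 (52.8 ± 5.94), and SLC1A4 had the lowest (1.95 ± 0.394). In senescent DMSO, SLC1A5 (85.4 ± 4.06) and SLC38A2 (83.8 ± 11.5) did not differ beyond their spread. With the union of exons as length, SLC3A2 came to 15.6 in place of 52.8, so its level relative to its light chains depends on the transcript used.

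**Figure D1:**
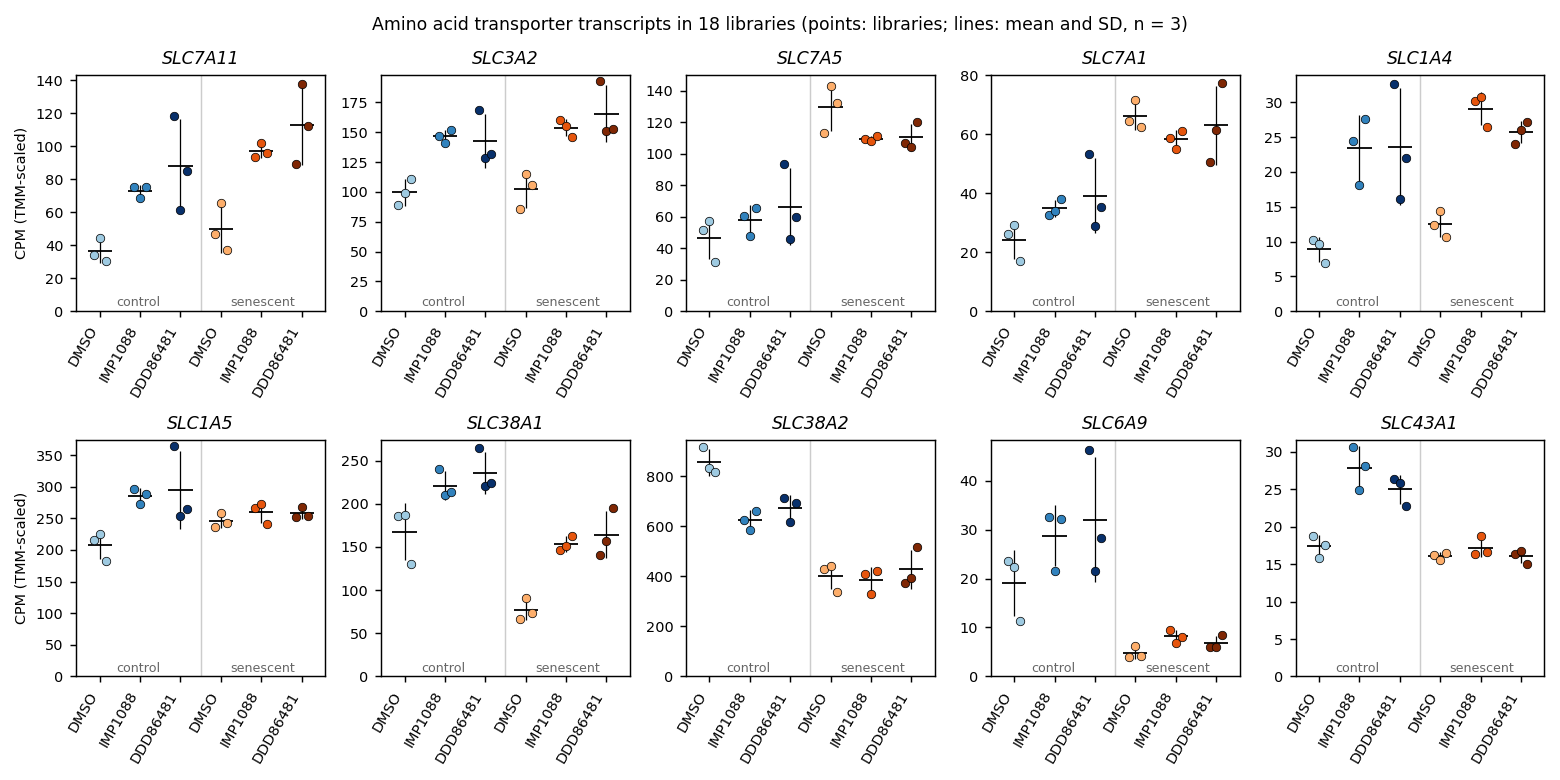
TMM-scaled CPM (y axes, from 0) of the 10 transporter genes in the 6 groups (x axes). Points are single libraries, horizontal lines the mean and vertical lines the SD of 3 libraries. SLC7A11, SLC3A2, SLC1A4 and SLC38A1 lie higher with either inhibitor than with DMSO in both states. SLC38A2 and SLC6A9, lower in senescent cells, and SLC7A5, higher in them, separate all control from all senescent libraries.

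To find how senescence itself changed the transporters, senescent and control cells were compared, both with DMSO. The leucine exchanger SLC7A5 and the arginine and lysine carrier SLC7A1 rose, and SLC38A1, SLC38A2 and SLC6A9, which carry glutamine, alanine and glycine, fell. Of the 10, the counts were 2 higher, 3 lower and 5 not called at an adjusted p under 0.05, where 32.5% of all genes tested were called higher and 36% lower. The median log2 fold change of the 10 was 0.14, against -0.05 over all genes tested. Upper-quartile scaling moved the latter to -0.21, and the 5 calls kept their direction under it. Every senescent library lay above every control library for 4 of the 10 and below for 3, against 32.4% and 35.2% of all genes tested. As RNA was bulk, a smaller share of cells making a transcript and less transcript per cell cannot be told apart here.

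SLC7A5 stood at 51.3, 57 and 31.3 CPM in control cells and at 113, 143 and 132 CPM in senescent cells. Every senescent library lay above every control library, and the log2 fold change was 1.47 ± 0.21 (SE; adjusted p = 2.96e-06, edgeR's quasi-likelihood test). SLC7A1 followed the same course, with 26.2, 29.2 and 17.1 CPM in control cells and 64.4, 71.8 and 62.5 CPM in senescent cells (1.45 ± 0.20, adjusted p = 1.61e-06). Without replicate 3 of control DMSO, the lowest library for both genes, the changes were 1.26 and 1.26, and both calls held. The heavy chain gene was not called. SLC3A2 had 88.7, 99 and 111 CPM in control cells and 85.3, 115 and 106 CPM in senescent cells, the groups overlapped, and the 95% interval of the log2 fold change ran from -0.23 to 0.30.

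SLC38A2, a sodium-coupled carrier, had 915, 831 and 816 CPM in control cells and 429, 439 and 339 CPM in senescent cells (log2 fold change -1.09 ± 0.13, adjusted p = 2.47e-07). Its relative SLC38A1 had 186, 187 and 130 CPM in control cells and 66.7, 90.9 and 74 CPM in senescent cells (-1.12 ± 0.14, adjusted p = 8.38e-07). Neither gene had overlapping groups. The glycine carrier SLC6A9 gave the largest change of the 10, from 23.5, 22.3 and 11.3 CPM to 4.01, 6.29 and 4.18 CPM (-1.99 ± 0.30, adjusted p = 6.54e-06). These calls held without any single library. Of the exonic bases of SLC6A9, 7.9% are shared with CCDC24 on the opposite strand, and the study's alignment was set for a first-strand library while the strand setting of the counting step was not given in the sources used here.

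The remaining members did not pass the test between senescent and control cells, and 3 of them lay close to the threshold. SLC7A11 had 34.3, 44.5 and 30.5 CPM in control cells and 46.7, 65.6 and 36.9 CPM in senescent cells, with overlapping groups (0.45 ± 0.21, adjusted p = 0.0657). Without replicate 2 of control DMSO or replicate 3 of senescent DMSO it passed, at 0.59 and 0.63, and without replicate 2 of senescent DMSO it was 0.20 (adjusted p = 0.428). SLC1A4 had 10.2, 9.66 and 6.87 CPM in control cells and 12.4, 14.4 and 10.7 CPM in senescent cells, groups that did not overlap (0.48 ± 0.22, adjusted p = 0.0533), and it passed without replicate 1 of control DMSO (0.59) or replicate 3 of senescent DMSO (0.59). SLC1A5 had 216, 225 and 182 CPM in control cells and 237, 259 and 242 CPM in senescent cells, without overlap (0.24 ± 0.12, adjusted p = 0.0651). Without replicate 3 of control DMSO the values of SLC7A11, SLC1A4 and SLC1A5 were 0.34, 0.33 and 0.16 (adjusted p = 0.177, 0.185 and 0.219). These 3 passed when libraries were scaled by relative log expression (RLE), with adjusted p of 0.0484, 0.0391 and 0.037, and with DESeq2, with 0.0391, 0.0263 and 0.0339, but not with upper-quartile scaling, with 0.218, 0.169 and 0.483. For SLC43A1 the control libraries held 18.7, 15.8 and 17.6 CPM and the senescent ones 16.2, 15.5 and 16.5 CPM, which overlapped (95% interval -0.34 to 0.12).

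Next, each inhibitor was compared with DMSO in senescent cells, where both comparisons used the same 3 DMSO libraries. The cystine exchanger SLC7A11, its heavy chain SLC3A2, the neutral amino acid exchanger SLC1A4 and the glutamine carrier SLC38A1 rose with either inhibitor, by 1.51-fold to 2.33-fold. With IMP1088, 4 of 10 were called higher and 0 lower, against 20.6% and 23.9% of all genes tested. With DDD86481, 4 of 10 were called higher and 0 lower, against 20.1% and 23.1%. Every library with IMP1088 lay above every DMSO library for 5 of the 10 and below for 2, against 28.1% and 32.9% of all genes tested. With DDD86481 this held for 4 and 0, against 24% and 28.7%. The median log2 fold changes were 0.35 and 0.30, with medians over all genes of -0.04 for both inhibitors.

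SLC7A11 held 93.7, 102 and 96 CPM with IMP1088 and 89.2, 138 and 112 CPM with DDD86481, above the 36.9 to 65.6 CPM of the DMSO libraries. The change with IMP1088 was 0.97 ± 0.21 (adjusted p = 0.000832), and DDD86481 gave 1.19 ± 0.21 (adjusted p = 0.000124). Of its exonic bases, 9.0% are shared with SLC7A11-AS1 on the opposite strand, whose own row held 0 to 3 counts in control libraries and 10 to 25 in senescent ones. SLC3A2 held 160, 155 and 146 CPM with IMP1088 and 193, 151 and 153 CPM with DDD86481, with every library above the DMSO libraries (0.59 ± 0.13, adjusted p = 0.000707, and 0.70 ± 0.13, adjusted p = 0.000151). The heavy chain and the cystine light chain both rose, and the leucine light chain was not called, though the genes were not tested against each other. SLC7A5 held 109, 108 and 111 CPM with IMP1088, just under the lowest DMSO library (113), and 107, 104 and 120 CPM with DDD86481. Its 95% intervals ran from -0.67 to 0.18 and from -0.65 to 0.19.

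SLC1A4 held 30.2, 30.7 and 26.4 CPM with IMP1088 and 24, 26 and 27.2 CPM with DDD86481, where the highest DMSO library held 14.4 CPM (1.22 ± 0.21, adjusted p = 7.72e-05, and 1.04 ± 0.21, adjusted p = 0.000415). SLC38A1 held 146, 151 and 163 CPM with IMP1088 and 141, 157 and 195 CPM with DDD86481, against 90.9 CPM in the highest DMSO library (0.99 ± 0.14, adjusted p = 1.28e-05, and 1.09 ± 0.14, adjusted p = 4.68e-06). SLC38A1 was lower in senescent than in control cells with DMSO, and its levels with either inhibitor in senescent cells overlapped those of control cells with DMSO. The calls of all 4 genes held without any single library of the groups compared.

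The other members did not pass the test in senescent cells with either inhibitor. SLC38A2 held 407, 328 and 422 CPM with IMP1088 and 374, 393 and 517 CPM with DDD86481, overlapping DMSO in both cases, with intervals from -0.33 to 0.20 and from -0.18 to 0.35. SLC7A1 held 58.9, 55.2 and 61.3 CPM with IMP1088 and 50.6, 61.4 and 77.3 CPM with DDD86481 (intervals -0.58 to 0.22 and -0.47 to 0.33), and only the former lay wholly below its DMSO libraries. SLC1A5 stayed between 241 and 273 CPM in the 6 libraries with an inhibitor, and SLC43A1 between 15 and 18.7 CPM, both overlapping DMSO. The glycine carrier SLC6A9 held 9.52, 6.87 and 8.13 CPM with IMP1088, above the DMSO libraries, without passing the test (0.77 ± 0.32, adjusted p = 0.054). It passed without replicate 2 of senescent DMSO (1.00, adjusted p = 0.0347), with DESeq2 (0.75, adjusted p = 0.0253), without a filter on low counts (0.76, adjusted p = 0.00309), with upper-quartile scaling (adjusted p = 0.0481) and when only these groups were fitted (0.80, adjusted p = 0.000809). With DDD86481 SLC6A9 held 6.11, 6.11 and 8.52 CPM, which overlapped DMSO (0.52 ± 0.32, adjusted p = 0.203).

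**Figure D2:**
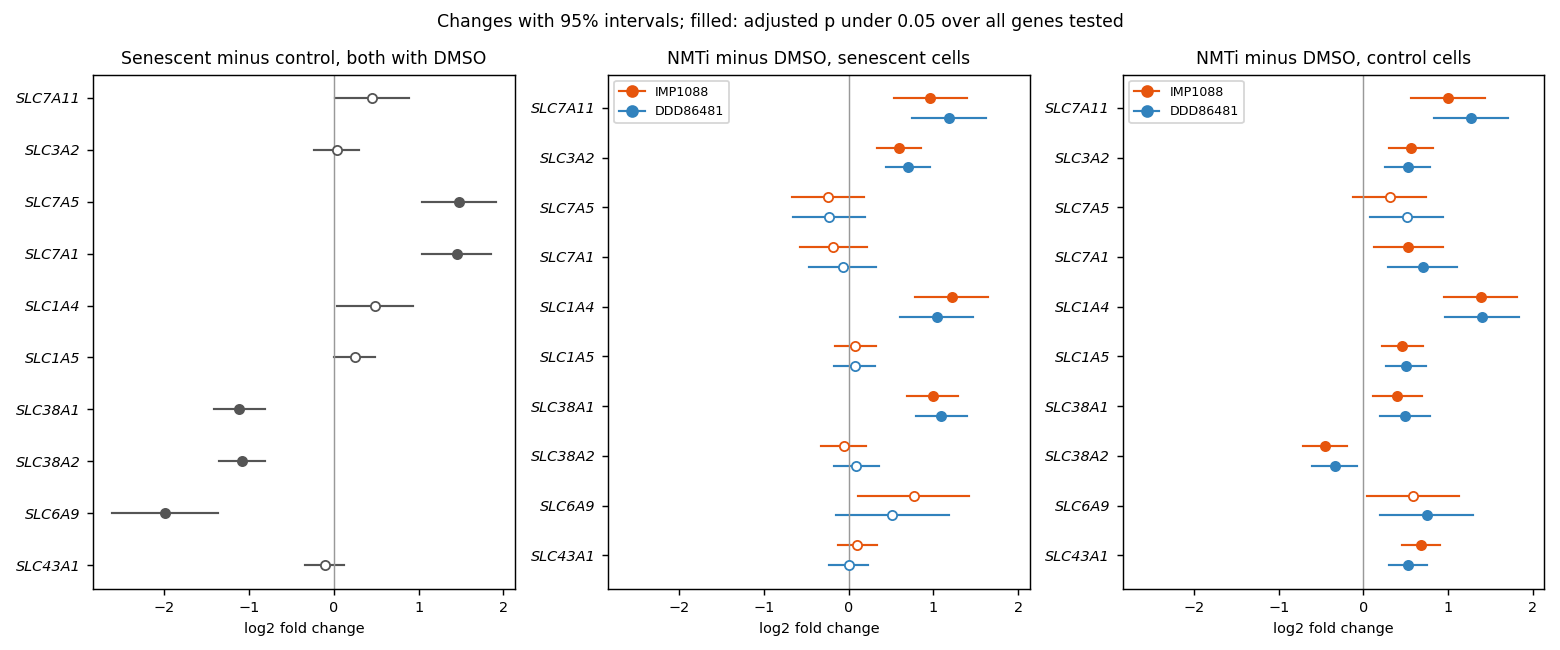
Log2 fold changes (x axes) of the 10 transporters (y axes) between senescent and control cells with DMSO, and with each inhibitor against DMSO in senescent and in control cells. Points are edgeR estimates, lines 95% intervals and filled points adjusted p under 0.05. In senescent cells 4 genes are filled for either inhibitor, and in control cells 8 are filled with IMP1088 and 9 with DDD86481, with SLC38A2 below 0.

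The same comparisons in control cells again shared 3 DMSO libraries. SLC7A11, SLC3A2, SLC1A4, SLC1A5 and SLC43A1 rose with either inhibitor and in every fit that left out 1 library, and SLC38A2 fell. With IMP1088, 7 of 10 were called higher and 1 lower, against 16.3% and 17.4% of all genes tested. With DDD86481, 8 of 10 were called higher and 1 lower, against 17.8% and 18.7%. Every library with IMP1088 lay above every DMSO library for 7 of the 10 and below for 1, against 20.1% and 21.3% of all genes tested. With DDD86481 this held for 6 and 1, against 21.4% and 22%. The median log2 fold changes were 0.55 and 0.52, where those of all genes were close to 0. Without replicate 3 of control DMSO the counts called higher were 5 and 7, and without replicate 1 of control DDD86481 the second count was 5. Over all fits without 1 library, genes called in either direction ran from 3505 to 5892 with IMP1088, against 4829. With DDD86481 they ran from 3773 to 6317, against 5242.

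SLC7A11 held 75, 68.7 and 75.3 CPM with IMP1088 and 118, 61.6 and 84.7 CPM with DDD86481, all above the DMSO libraries (1.00 ± 0.21, adjusted p = 0.00104, and 1.27 ± 0.21, adjusted p = 0.000106). SLC3A2 held 147, 141 and 152 CPM and 169, 128 and 132 CPM, also above DMSO (0.56 ± 0.13, adjusted p = 0.00186, and 0.52 ± 0.13, adjusted p = 0.00317). SLC1A4 had the largest fold change of the 10 with either inhibitor, with 24.5, 18.1 and 27.6 CPM and 32.7, 16.1 and 22 CPM, against at most 10.2 CPM with DMSO (1.38 ± 0.21, adjusted p = 4.01e-05, and 1.40 ± 0.21, adjusted p = 3.52e-05). In control cells the cystine exchanger and its heavy chain were called and SLC7A5 was not. With DDD86481 the estimates of SLC7A5 and SLC3A2 were alike (0.51 ± 0.21 and 0.52 ± 0.13), and the genes were not tested against each other. SLC7A5 held 60.1, 47.6 and 65.7 CPM with IMP1088 (0.31 ± 0.21, adjusted p = 0.263, and 0.09 without replicate 3 of control DMSO) and 93.5, 45.7 and 60 CPM with DDD86481 (0.51 ± 0.21, adjusted p = 0.0594), overlapping DMSO in both. For DDD86481 it passed without replicate 1 or 2 of control DMSO (0.58 and 0.69) or replicate 2 of control DDD86481 (0.72), while it was 0.29 without replicate 3 of control DMSO and 0.19 without replicate 1 of control DDD86481.

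SLC1A5 held 297, 272 and 288 CPM with IMP1088 and 365, 254 and 264 CPM with DDD86481, above the 182 to 225 CPM with DMSO (0.46 ± 0.12, adjusted p = 0.00422, and 0.50 ± 0.12, adjusted p = 0.00208). An unnamed gene model on the opposite strand, ENSG00000275719, shares 23.4% of the exonic bases of SLC1A5. SLC43A1 held 30.7, 24.9 and 28.1 CPM with IMP1088 and 26.4, 25.8 and 22.8 CPM with DDD86481, and its groups did not overlap the 15.8 to 18.7 CPM with DMSO (0.68 ± 0.11, adjusted p = 6.16e-05, and 0.53 ± 0.11, adjusted p = 0.000836). SLC38A2 went the other way, to 626, 583 and 661 CPM with IMP1088 and 714, 615 and 693 CPM with DDD86481. Its fall with IMP1088 held without any single library (-0.45 ± 0.13, adjusted p = 0.00929). The fall with DDD86481 (-0.34 ± 0.13, adjusted p = 0.0404) was lost in 5 of 6 such fits, namely without replicate 1 or 2 of control DMSO or any control DDD86481 library, with values from -0.38 to -0.28.

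Each call of SLC38A1, SLC7A1 and SLC6A9 in control cells was lost in at least 1 fit without 1 library, in some of them at an estimate no smaller than the reported one. SLC38A1 held 240, 210 and 213 CPM with IMP1088 and 264, 220 and 224 CPM with DDD86481, against 130 to 187 CPM with DMSO (0.40 ± 0.14, adjusted p = 0.0336, and 0.49 ± 0.14, adjusted p = 0.0101). The call with IMP1088 was lost without replicate 3 of control DMSO (0.25, adjusted p = 0.152) or without replicate 1 or 3 of control IMP1088 (0.34 and 0.44), and that with DDD86481 without replicate 1 of control DDD86481 (0.41, adjusted p = 0.0606). SLC7A1 held 32.6, 34 and 38.2 CPM with IMP1088 (0.53 ± 0.20, adjusted p = 0.0424), a call lost with the replicate number as a block (0.53, adjusted p = 0.0543), without replicate 3 of control DMSO (0.34, adjusted p = 0.179) and without each library of control IMP1088 (0.47 to 0.58). With DDD86481 it held 53.3, 28.9 and 35.5 CPM, overlapping DMSO (0.70 ± 0.20, adjusted p = 0.0089), and without replicate 1 of that group the change was 0.42 (adjusted p = 0.102). SLC6A9 held 32.6, 21.5 and 32.2 CPM with IMP1088 (0.59 ± 0.26, adjusted p = 0.0892), which passed without replicate 1 of control DMSO (0.76) or replicate 2 of control IMP1088 (0.77) and was 0.33 without replicate 3 of control DMSO (adjusted p = 0.322). With DDD86481 it held 46.2, 21.5 and 28.3 CPM (0.74 ± 0.26, adjusted p = 0.0312), and the call was lost without replicate 3 of control DMSO (0.48) or replicate 1 of control DDD86481 (0.39). When only the groups compared were fitted, none of the called changes of SLC38A1, SLC7A1 and SLC6A9 passed (adjusted p = 0.0556 to 0.124), nor did those of SLC1A5 (0.50, adjusted p = 0.0553) and SLC38A2 (adjusted p = 0.0632) with DDD86481. Upper-quartile scaling also ended the IMP1088 calls of SLC38A1 (0.35, adjusted p = 0.0524) and SLC7A1 (0.48, adjusted p = 0.0559).

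Whether an inhibitor acted differently in the 2 states was tested with an interaction term on the log2 scale, which subtracts the effect in control cells from the effect in senescent cells. The effect of IMP1088 on SLC43A1, which rose in control cells and was not called in senescent cells, was lower in senescent than in control cells, and that on SLC38A1 was higher. With IMP1088, 1 of 10 was called higher and 1 lower, against 12.1% and 14.2% of all genes tested. With DDD86481, 1 was called higher and 3 lower, against 14.4% and 15.9%. Without replicate 3 of control DMSO, those called lower with DDD86481 numbered 1, and without replicate 1 of control DDD86481 they numbered 0.

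For SLC43A1 the difference was -0.58 ± 0.15 with IMP1088 (adjusted p = 0.00902), a call that held without any single library, and -0.53 ± 0.16 with DDD86481 (adjusted p = 0.0155), lost without replicate 2 of control DMSO (-0.43) or replicate 1 of control DDD86481 (-0.45). For SLC38A1 it was 0.59 ± 0.20 (adjusted p = 0.0348) and 0.60 ± 0.20 (adjusted p = 0.0301), and the sign was kept in every fit without 1 library, with values from 0.50 to 0.75 and from 0.46 to 0.75. The call of SLC38A1 itself was lost in 8 of 12 such fits with IMP1088 and in 6 of 12 with DDD86481. SLC7A1 and SLC1A5 were called with DDD86481 but not with IMP1088 (-0.71 ± 0.27, adjusted p = 0.0601, and -0.38 ± 0.16, adjusted p = 0.0873). Their values with DDD86481 were -0.77 ± 0.27 (adjusted p = 0.0389), lost in 8 of 12 fits, and -0.43 ± 0.16 (adjusted p = 0.0489), lost in 10 of 12. Without replicate 3 of control DMSO they came to -0.57 and -0.35, and without replicate 1 of control DDD86481 to -0.45 and -0.21. With only the groups compared in the fit, the DDD86481 calls of SLC38A1 (adjusted p = 0.0557), SLC7A1 (adjusted p = 0.0993) and SLC1A5 (adjusted p = 0.133) were lost. SLC7A11, SLC3A2 and SLC1A4, which rose in both states, showed no detectable difference between them. The intervals of the interaction ran from -0.65 to 0.58 for SLC7A11, from -0.34 to 0.40 for SLC3A2 and from -0.77 to 0.44 for SLC1A4 with IMP1088, so differences of those sizes remain possible.

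**Figure D3:**
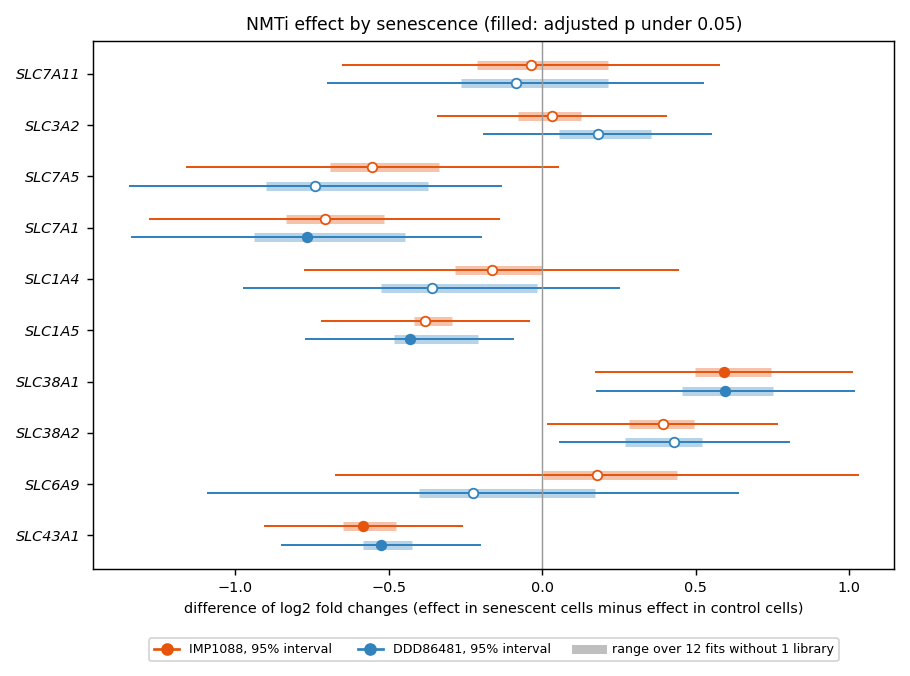
Interaction of inhibitor and state (x axis, log2 scale, positive where the effect was larger in senescent cells) for the 10 transporters (y axis). Thin lines are 95% intervals, thick bands the range over 12 fits that each left out 1 library, and filled points adjusted p under 0.05. SLC38A1 lies above 0 and SLC43A1 below 0 with both inhibitors, and the bands of SLC7A11 cross 0.

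IMP1088 and DDD86481 are inhibitors of the same enzymes, given at different doses, so their values stand side by side above. In the direct comparison, 0 of 10 transporters were called in senescent or in control cells, where 0% of all genes tested were called. At an unadjusted p under 0.05, 0 of the 10 passed in either state, with 570 genes in all in senescent and 141 in control cells. DESeq2 called 0 genes in both. The 95% intervals for the 10 members lay between -0.65 and 0.88 in senescent cells and between -0.70 and 0.40 in control cells.

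Lists of related genes were read in the same fit, by counts at an adjusted p under 0.05 and by the 3 called genes with the largest change with IMP1088 in senescent cells. The lists overlap, as ATF4, ATF3, CEBPB, CEBPG, DDIT3, CHAC1, ASNS and SESN2 each stand in more than a single list. Counts of different lists are therefore not independent. Each count stands against the shares of all genes tested given above, which in senescent cells came to 20.6% (higher) and 23.9% (lower) for IMP1088 or 20.1% and 23.1% for DDD86481. In control cells they were 16.3% and 17.4% or 17.8% and 18.7%, and for senescence 32.5% and 36%. Of 7 other chains of the heteromeric transporters, 3 passed the filter. SLC7A6 and SLC7A7, light chains that exchange basic and neutral amino acids on SLC3A2, rose in control cells with IMP1088 (0.55 ± 0.16 and 0.47 ± 0.13) and were not called in senescent cells (0.26 ± 0.16 and -0.19 ± 0.13). With DDD86481, 2 of the 3 tested were called higher in control cells and 0 in senescent cells. The interaction was called lower for 1 of the 3 with each inhibitor. SLC7A8 (LAT2) rose with IMP1088 in senescent cells (1.42 ± 0.47, adjusted p = 0.0184) from a low level, 0.516 ± 0.216 to 1.38 ± 0.33 CPM. It was not called with DDD86481 there (0.65 ± 0.51, adjusted p = 0.321). In control cells SLC7A8 was called higher with IMP1088 (adjusted p = 0.00588) and DDD86481 (adjusted p = 0.0215). Its level in control DMSO, 0.194 ± 0.136 CPM, was near the floor of 3 counts a library, so no fold change is given there. With IMP1088 and DDD86481 control cells held 0.856 ± 0.502 and 0.67 ± 0.0528 CPM. Of 24 other amino acid transporters, grouped as plasma membrane carriers without a check of where each resides, 11 were tested. With IMP1088 in senescent cells 3 rose and 4 fell, and with DDD86481 4 rose and 4 fell. SLC7A2, a cationic carrier related to SLC7A1, fell by 2.10 ± 0.15 with IMP1088 (adjusted p = 2.1e-09), SLC6A17 rose by 1.88 ± 0.32 (adjusted p = 8.99e-05) and SLC1A1, a glutamate and cysteine carrier, by 0.87 ± 0.21 (adjusted p = 0.00227). In control cells 2 rose and 2 fell with IMP1088, and 2 rose and 1 fell with DDD86481. With senescence itself 6 of these 11 rose and 4 fell, and of the other light chains 1 of 3 rose.

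Of 11 lysosomal and vesicular carriers tested, 6 rose and 2 fell in senescent cells with either inhibitor. The numbers were 7 and 1 in control cells with IMP1088 and 6 and 1 with DDD86481, and 5 rose and 1 fell with senescence. CTNS, which releases cystine from lysosomes, rose with IMP1088 by 1.25 ± 0.12 in senescent cells (adjusted p = 9.63e-08) and by 1.12 ± 0.12 in control cells (adjusted p = 1.16e-06). SLC36A1, a proton-coupled carrier, fell by 1.14 ± 0.21 in senescent cells (adjusted p = 0.00019) and was not called in control cells (0.13 ± 0.21). SLC7A14 was called lower at levels near the floor of 3 counts a library (0.33 ± 0.142 CPM with DMSO and 0.0374 ± 0.0647 CPM with IMP1088 in senescent cells), so no fold change is given.

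Among genes of the ATF4 and amino acid response that are no transporters, 34 of 36 were tested. In senescent cells 21 rose and 3 fell with IMP1088 (median 0.44) and 20 rose and 2 fell with DDD86481 (median 0.45 where that of all genes was -0.04). In control cells 13 rose and 3 fell with IMP1088, and 15 rose and 2 fell with DDD86481, while 17 rose and 8 fell with senescence. The 3 genes named by the rule were INHBE (0.437 ± 0.374 CPM with DMSO and 35.9 ± 4.77 CPM with IMP1088, a log2 fold change of 6.34 ± 0.46), DDIT3 (1.75 ± 0.20) and CTH (1.52 ± 0.20, adjusted p = 5.35e-06), the last an enzyme that makes cysteine from cystathionine. Of the 16 cystine and glutathione genes, 4 rose and 8 fell with IMP1088 and 5 rose and 5 fell with DDD86481 in senescent cells, with medians of -0.24 and -0.10. HMOX1, which degrades haem, rose by 2.49 ± 0.32 and GGT1, which cleaves extracellular glutathione, by 1.57 ± 0.15, whereas NQO1, a quinone reductase and NRF2 target, fell by 1.34 ± 0.10 (adjusted p = 6.33e-09). In control cells 2 rose and 4 fell with IMP1088 and 3 rose and 4 fell with DDD86481, and 11 rose and 2 fell with senescence.

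Of 19 enzymes of glutamine, glutamate, arginine and branched-chain amino acids tested, 8 rose and 3 fell with IMP1088 in senescent cells, and 6 rose and 3 fell with DDD86481. ASS1 of arginine synthesis and BCKDHA of branched-chain breakdown rose by 0.89 ± 0.11 and 0.87 ± 0.10. In control cells 4 rose and 4 fell with IMP1088 and 5 rose and 4 fell with DDD86481, and 11 rose and 3 fell with senescence. Of 28 amino acid sensing genes, 11 rose in senescent cells with either inhibitor, with 4 falling with IMP1088 and 1 with DDD86481. The largest changes were those of NPRL2, a subunit of the GATOR1 complex (1.88 ± 0.14), RRAGD, a Rag GTPase (1.87 ± 0.22), and LAMTOR3, a Ragulator subunit (1.03 ± 0.12). In control cells 8 rose and 3 fell with IMP1088 and 9 rose and 2 fell with DDD86481, and 10 rose and 7 fell with senescence.

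Of 19 factors known to act on transporter genes or upstream of ATF4, 18 were tested, all but MYCN. With IMP1088 in senescent cells 9 rose and 4 fell, and with DDD86481 7 rose and 5 fell. Those higher with IMP1088 were DDIT3, ATF4 (1.35 ± 0.14), ATF3 (0.88 ± 0.26), CEBPB (0.53 ± 0.14), MAX (1.06 ± 0.10), NFE2L2 (0.25 ± 0.09), EPAS1 (0.29 ± 0.12) and the eIF2α kinase genes EIF2AK3, which encodes PERK (1.73 ± 0.16, adjusted p = 3.17e-08), and EIF2AK1 (0.64 ± 0.11). BACH1, a repressor of antioxidant response genes (-0.59 ± 0.11), ETS1 (-0.84 ± 0.10) and HIF1A (-0.62 ± 0.10) were among those lower, and CEBPG, MYC, KEAP1, EIF2AK2 and EIF2AK4, which encodes the amino acid sensor GCN2 (-0.21 ± 0.09, adjusted p = 0.0685), were not called. In control cells 8 rose and 1 fell with either inhibitor, the latter MYC (-0.54 ± 0.15 with IMP1088), and 10 rose and 5 fell with senescence. With senescence ATF4 and NFE2L2 fell by 0.67 ± 0.14 and 1.02 ± 0.09, while MYC rose by 1.14 ± 0.15. The effect of IMP1088 on ATF4 was larger in senescent than in control cells by 0.98 ± 0.19 (adjusted p = 0.00104).

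**Figure D4:**
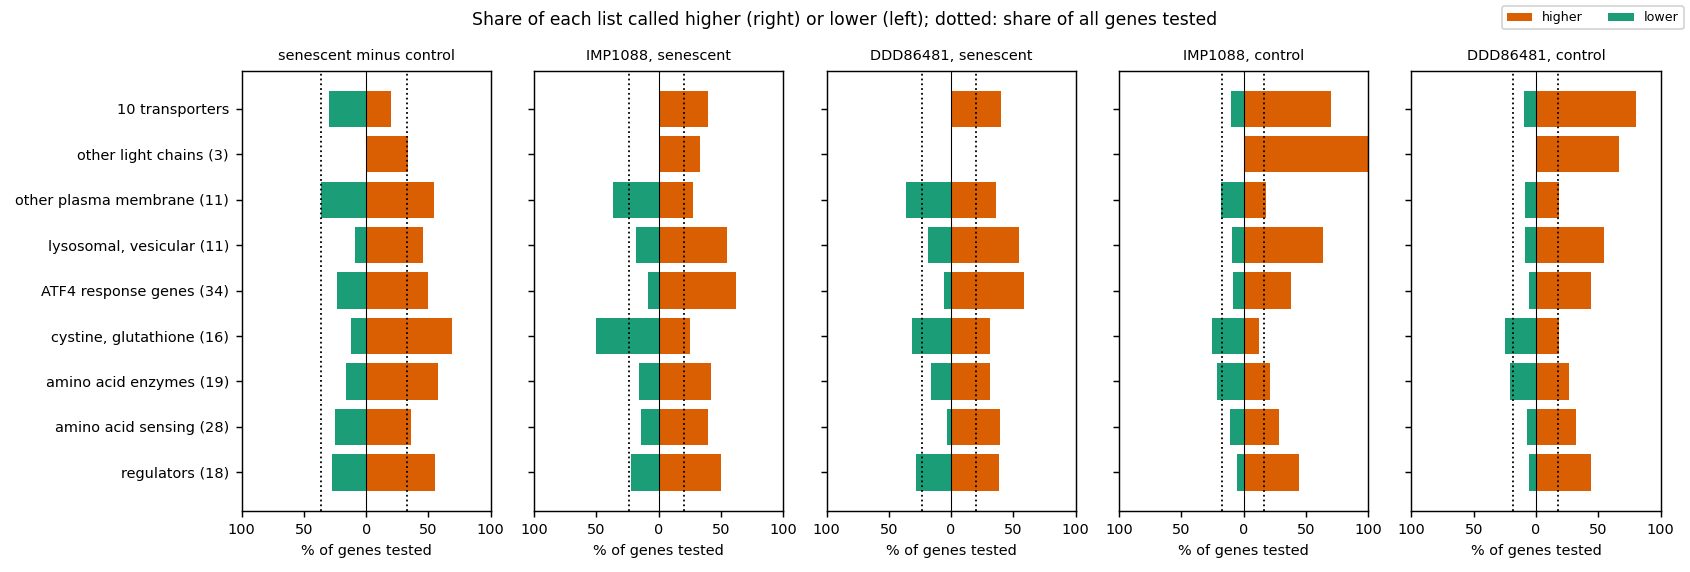
Share of genes tested (x axes, %) called higher (orange, right of 0) or lower (green, left of 0) for the 10 transporters and 8 related lists (y axis, number tested in brackets) in 5 comparisons. Dotted lines give the share of all genes tested. In senescent cells with IMP1088, 21 of 34 ATF4 response genes and 4 of 10 transporters were higher, and 8 of 16 cystine and glutathione genes lower.

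The genes whose profile over the 6 group means was most like that of 3 central members were found among 12500 genes that varied by at least 0.5 on the log2 scale, by the root mean square difference of centred log2 CPM. Nearest to SLC7A11 were CBLB (0.0996), TMEM104 (0.104), SPTY2D1 (0.107), JUNB (0.11) and OSBP (0.125). Nearest to SLC7A5 were MID1IP1 (0.0478), RUSC2 (0.0592), ZFYVE28 (0.0807) and PLD1 (0.0849), and nearest to SLC3A2 were ELP2 (0.0478), MBD4 (0.0498), ARAP1 (0.057), SPPL2B (0.0631) and ING1 (0.0643). None of the 3 members was among the 5 nearest to another, and with 6 points that share libraries these distances are a description only.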

How the data were processed

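The authors deposited raw read counts per gene symbol for 18 libraries, made from poly(A) RNA with a directional kit. The study's methods describe TopHat alignment to hg19 with a first-strand library setting and counting by HTSeq, whereas the submitters' processing notes name STAR 2.7.8a, DRAGEN, DESeq2 1.32.0 and hg38. Which of them made the table, and the strand setting of counting, are not given in the sources used here. The labels give the inhibitor time as day 3 in titles and the collection as day 10, and DDD86481 columns are named PCLX001.

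Groups came from the labels. With edgeR 4.0.16 in R 4.3.3, filterByExpr kept 14341 genes with 99.962% of counts, libraries were scaled by TMM and 1 quasi-likelihood fit of 6 groups gave each contrast. P-values were adjusted by Benjamini-Hochberg over all genes tested, with a threshold of 0.05. CPM profiles used a prior count of 2. Standard errors and 95% intervals came from the F statistic. Precision rests on library totals of 16143716 to 23189950, floors of 3 counts were 0.121 to 0.187 CPM and cover counting error only, as reads carried no molecular identifiers. No pair of replicates was a duplicate, as chi-square values per gene were 5.09 or more.

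Replicate numbers were checked by correlating deviations from group means. Every same-numbered r was above 0.1 for IMP1088 and DMSO in control cells (0.394, 0.123 and 0.231) and for the 2 inhibitors in senescent (0.117, 0.126 and 0.119) and control cells (0.101, 0.27 and 0.129), so the block is printed beside results of these comparisons where it changed a call. The reported fit has no block. Replicate 2 of control IMP1088 correlated best with replicate 3 of control DMSO, while between the 2 inhibitors each replicate matched its own number in both states. That also held for IMP1088 and DMSO in senescent cells, at r of 0.0962, 0.0695 and 0.00692.

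Named genes were the 10 members, the 3 called genes of each list with the largest change with IMP1088 in senescent cells, every factor of the last list and the 5 nearest genes of 3 members. SLC7A6, SLC7A7, CDKN2B and MKI67 fall outside this rule and were named after their values were seen. So do the cell type markers CD68, CD3E, PECAM1, CDH5, DCN, LUM, COL1A1, COL1A2, THY1 and VIM, picked from the marker lists. Some genes that the rule names are not reported here. Members and lists were chosen with earlier results of these data known. Exon overlaps and lengths came from GENCODE on GRCh37, upstream sequence and positions from RefSeq GRCh38.p14. Alternatives were RLE and upper-quartile scaling, no filter, the replicate block, only the groups compared, DESeq2 1.42.0 and each library left out.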

Additional observations from a re-analysis of the deposited data

Results flagged for a closer look

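Effects of an inhibitor that differed between senescent and control cells by the interaction test (edgeR, adjusted p under 0.05) were taken out for a closer look. With IMP1088 the effect was larger in senescent cells for SLC38A1 (0.59 on the log2 scale, adjusted p = 0.0348) and smaller for SLC43A1 (-0.58, adjusted p = 0.00902). With DDD86481 it was larger for SLC38A1 (0.60, adjusted p = 0.0301) and smaller for SLC7A1 (-0.77, adjusted p = 0.0389), SLC1A5 (-0.43, adjusted p = 0.0489) and SLC43A1 (-0.53, adjusted p = 0.0155). The 2 inhibitors share the DMSO libraries of each state, so the tests with one are not independent of those with the other. Without replicate 1 of control DDD86481, the highest of its group for all 10 transporters, SLC7A1 came to -0.45 (adjusted p = 0.189), SLC1A5 to -0.21 (adjusted p = 0.251) and SLC43A1 to -0.45 (adjusted p = 0.0512).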

How the results depend on the processing

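Leaving out 1 library at a time turned the sign of 25 of 540 values of the 10 transporters, in comparisons where the member was not called. In senescence, members called higher numbered 5 with RLE scaling, 5 without a filter, 4 with the replicate block and 5 with DESeq2, against 2, and 2 to 4 without 1 library. All genes called higher numbered 4871 with RLE scaling, 5066 without a filter, 4721 with the block and 4911 with DESeq2, against 4663. Without a filter more genes were tested. Without 1 library, genes called in either direction ran from 9239 to 10027, against 9827. Upper-quartile scaling moved the median of all genes in senescence from -0.05 to -0.21 and its calls from 4663 higher and 5164 lower to 3795 and 6149. For SLC3A2 it gave -0.12. With only the groups compared, genes called in control cells fell from 4829 to 2716 with IMP1088 and from 5242 to 2842 with DDD86481, members higher with DDD86481 from 8 to 4 and lower from 1 to 0, and 1 member, SLC7A5, was lower with IMP1088 in senescent cells (-0.21, adjusted p = 0.0211), where SLC6A9 passed with DDD86481 (0.55, adjusted p = 0.0396) and SLC43A1 with DDD86481 turned to 0.034. Interaction counts with IMP1088 were 3 lower without a filter, 2 with only the groups compared and 2 with DESeq2. All genes called lower in these fits numbered 2155, 1660 and 2266, against 2030. With DDD86481 the interaction counts were 2 higher with upper-quartile scaling, 2 without a filter and 0 with only the groups compared, which left 1 lower. All genes called higher in these fits numbered 2392, 2029 and 1753, against 2068. Those lower in the last numbered 1520, against 2283. SLC7A11 had an IMP1088 interaction of 0.014 under upper-quartile scaling. Without a filter 1 gene differed between the inhibitors in senescent cells. The cause of these shifts was not tested.

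Without 1 library, members in control cells with DDD86481 numbered 5 to 9 higher and 0 to 1 lower. Interaction counts with IMP1088 ran from 0 to 1 higher and 1 to 2 lower, and with DDD86481 from 0 to 2 and 0 to 4. In these comparisons, in that order, all genes called in either direction ran from 3773 to 6317, 2738 to 5242 and 3419 to 5796. Values that turned in sign ran from -0.058 to 0.147 for SLC3A2 in senescence, from -0.171 to 0.044 and -0.069 to 0.178 for SLC38A2 with IMP1088 and DDD86481 in senescent cells, and from -0.242 to 0.066 for SLC7A1 and -0.035 to 0.044 for SLC43A1 with DDD86481 there. In interactions they ran from -0.21 to 0.21 and -0.26 to 0.21 for SLC7A11 with IMP1088 and DDD86481, from -0.08 to 0.13 for SLC3A2 with IMP1088 and from -0.40 to 0.17 for SLC6A9 with DDD86481.

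With the replicate number as a block, SLC1A4 (adjusted p = 0.0498) and SLC1A5 (adjusted p = 0.0496) gained a call in senescence. Besides the lost call of SLC7A1 with IMP1088 in control cells, the SLC7A1 interaction with DDD86481 lost its call (adjusted p = 0.0515). In senescence each replicate correlated best with the one of its own number, at r of 0.0508, 0.056 and 0.109. For DDD86481 and DMSO this did not hold for every replicate in either state. The block changed no other call of a member.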
